A study of Mus musculus with 37 samples.

Results

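Chromatin accessibility was examined at 6 genes that mark the cholinergic interneurons of the striatum: Chat, Slc5a7, Lhx8, Ecel1, Gbx1 and Slc17a8. The genes were chosen by name for their known role, and each was represented by every accessible region that lies in its body or within 2 kb of either end on the mouse build mm10. They are 6 of 21887 protein-coding genes in the annotation used. Chat, Lhx8, Ecel1 and Gbx1 had at least 1 region in each of the 3 count tables, Slc17a8 had none in the SST table, and Slc5a7 had none in any table.

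Cholinergic interneurons are large, sparse neurons of the striatum and nucleus accumbens that fire tonically and release acetylcholine onto projection neurons and dopamine axons. Choline acetyltransferase, encoded by Chat, makes acetylcholine. The vesicular transporter encoded by Slc18a3, which lies within the Chat gene, loads it into vesicles, and the high-affinity transporter encoded by Slc5a7 returns choline to the terminal. LHX8 and GBX1 are homeodomain proteins of the cholinergic lineage of the ventral forebrain, ECEL1 is a membrane peptidase, and SLC17A8 is the vesicular glutamate transporter VGLUT3, through which these cells also release glutamate.

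ATAC-seq, in which the Tn5 transposase tags open DNA, was run on nuclei from both accumbens of single adult mice (P60-210). All mice were compound heterozygotes that carried Rosa-LSL-Sun1-GFP, a Cre-dependent green tag of the nuclear envelope, with either Pvalb-IRES-Cre or Sst-IRES-Cre. Nuclei caught with an antibody to GFP form the IP libraries (parvalbumin, PV, or somatostatin, SST, nuclei), and the supernatant of the same kind of pulldown forms the unbound fraction (UF). The PV 60 min table holds 4 libraries in each of 4 groups, IP and UF, taken 60 min after 1 injection of saline or of 3 mg/kg amphetamine (AMPH). The SST table holds 3 IP and 3 UF libraries after saline. The PV 24 h table holds 3 saline IP libraries and 4 libraries in each of the saline UF, AMPH IP and AMPH UF groups, taken 24 h after the last of once-daily injections over 6 days. All isolation buffers held sodium butyrate, a deacetylase inhibitor, in every group, and none of the 6 genes drives Cre in these mice.

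Total counts ran from 650666 to 15120963 per library. Levels are in CPM, the usual depth-normalised read count, with library totals scaled by TMM (edgeR's trimmed mean of M-values): for a gene, its summed region counts relative to the counts in all genes, and for a single region, its count relative to the counts in all regions. A single read was worth 0.0765 to 1.69 CPM on the gene scale. The 3 tables hold different regions and were scaled separately, so CPM values are compared only within a table and within a gene. The pulldowns were checked by marker genes: all 6 PV markers tested were called higher in PV IP than in UF after saline at 60 min, and 4 of 5 SST markers tested were called higher in SST IP. The marker sets were not confined to their own pulldown. Of 6 PV markers, 3 were called higher and 1 lower in SST IP, and of 6 SST markers, 2 higher and 1 lower in PV IP. All 7 oligodendrocyte genes were called lower in both pulldowns. Of 9 markers of spiny projection neurons, the main neurons of the accumbens, 5 were called lower in PV IP, with sums of 163 to 222 CPM against 380 to 446 CPM in UF, and 3 higher and 1 lower in SST IP, with 295 to 318 against 262 to 284 CPM. Of 5 markers of the medial ganglionic eminence lineage, the embryonic source of PV, SST and cholinergic interneurons, 4 were called higher in PV IP (242 to 355 against 138 to 158 CPM) and 5 in SST IP (239 to 264 against 160 to 169 CPM), the direction of Lhx8 in both. Of 5 endothelial genes, 3 were called higher in saline PV IP at 60 min and 5 at 24 h. Their sums were 78.4 to 247 CPM in saline IP against 50.8 to 70.1 CPM in saline UF at 60 min. At 24 h they were 264 to 339 against 32.7 to 71.4 CPM. In SST IP 2 endothelial genes were called higher and 1 lower, with sums of 48.3 to 61.2 CPM against 51.6 to 56.9 CPM in SST UF. The part of these other nuclei in the results below was not tested.

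The 6 genes held 20 regions of 200 bp in the PV 60 min table, 8 in the SST table and 15 in the PV 24 h table. Together they mark 28 loci, counting regions that overlap by at least 100 bp as 1 locus. Of these, 5 loci were in all 3 tables, 5 in 2 tables and 18 in 1 table, and no region was shared with another gene. The 5 loci common to all tables lay in Chat (1), beyond the lower-coordinate end of Lhx8 (1) and of Ecel1 (1), and in Gbx1 (2).

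No region in any table lay within 1 kb of the RefSeq start of Chat, of Lhx8 or of Slc18a3, whereas Ecel1 had 1 region over its start in the PV 60 min table, with the nearest regions 48 bp downstream in the SST table and 195 bp downstream in the PV 24 h table, and Slc17a8 had 1 beside an internal start. The promoter windows that carry this contrast are shown here from RefSeq on GRCm38.p6, the assembly of mm10, each running from 250 bases before to 50 after the start on the minus strand. The Ecel1 start lies 729 bp inside the annotated end of the gene. In the Ecel1 window (chr1:87156307-87156606) capitals mark the 200 bases of the PV 60 min region that lies wholly inside it. In the windows of Chat (chr14:32465860-32466159) and of the internal start of Slc17a8 (chr10:89599766-89600065) capitals mark motif matches.

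Ecel1 promoter: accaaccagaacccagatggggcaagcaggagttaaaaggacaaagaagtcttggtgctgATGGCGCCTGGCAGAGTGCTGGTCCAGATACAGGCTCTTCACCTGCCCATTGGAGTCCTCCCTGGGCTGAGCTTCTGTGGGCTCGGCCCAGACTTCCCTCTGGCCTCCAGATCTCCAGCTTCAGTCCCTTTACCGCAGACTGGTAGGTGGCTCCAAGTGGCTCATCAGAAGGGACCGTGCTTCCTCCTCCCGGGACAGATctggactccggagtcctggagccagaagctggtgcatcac
Chat promoter: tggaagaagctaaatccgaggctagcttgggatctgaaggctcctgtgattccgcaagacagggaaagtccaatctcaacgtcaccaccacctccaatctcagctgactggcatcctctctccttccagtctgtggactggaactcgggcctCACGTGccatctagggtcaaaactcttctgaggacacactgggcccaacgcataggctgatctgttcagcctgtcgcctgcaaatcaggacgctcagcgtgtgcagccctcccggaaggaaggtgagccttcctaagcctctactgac
Slc17a8 internal promoter: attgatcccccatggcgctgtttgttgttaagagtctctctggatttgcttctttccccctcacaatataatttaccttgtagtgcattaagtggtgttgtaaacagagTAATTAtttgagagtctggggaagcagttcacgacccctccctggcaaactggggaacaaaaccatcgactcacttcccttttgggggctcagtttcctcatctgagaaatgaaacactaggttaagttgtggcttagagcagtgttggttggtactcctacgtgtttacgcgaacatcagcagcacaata

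The Ecel1 region covers bases 61 to 260 of its window, and 61% of its bases are G or C. The table of RefSeq promoters held windows for 5 of the 6 genes, and none for Gbx1. Motifs were searched on both strands in these windows and in that of Slc18a3. The Chat window held the E-box CACGTG once, as did 7.15% of 32851 promoter windows of this length. The internal Slc17a8 window held the homeodomain core TAATTA once, a motif found in 5.29% of windows. The Ecel1 window held CAAGTG, the core bound by NKX2 proteins, once (13.6% of windows), and CAGCACC, part of the REST element, once (7.14%). CAAGTG also stood once in the Slc18a3 and once in the Slc5a7 window, CAGCACC once in the window of the other Slc17a8 start, and the AP-1 motif TGACTCA (5.2%) and the CRE TGACGTCA (1.79%) in none. The Lhx8 window held none of the 6 motifs. These matches describe the letters of the windows only.

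**Figure D1:**
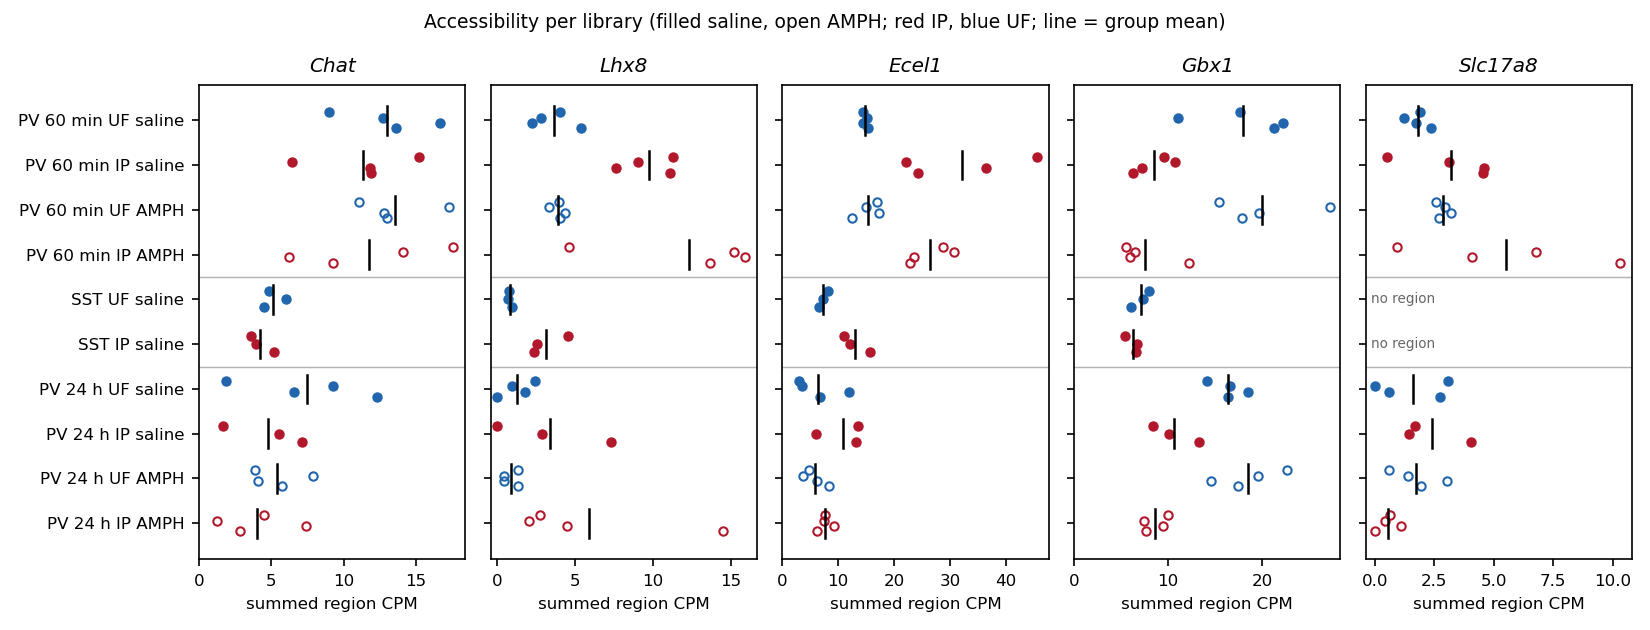
Summed CPM of each gene in every library, with UF in blue and IP in red, saline filled and AMPH open, and a line at each group mean; the horizontal lines part the 3 tables, whose scales differ. Lhx8 and Ecel1 lie to the right in the PV 60 min and SST IP rows, Gbx1 lies to the left in the PV IP rows, and the Chat rows of IP and UF overlap.

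Of the 5 genes tested in saline libraries at 60 min, Lhx8 and Ecel1 were more accessible in PV IP than in UF, Gbx1 was less accessible, and Chat and Slc17a8 were not called. Called means an adjusted p under 0.05 in edgeR's quasi-likelihood test with Benjamini-Hochberg adjustment over all genes of the comparison, and fold changes are log2 values of IP over UF with their standard error (SE). The background is large: 25% of the 16957 genes tested were called, 11.8% higher and 13.2% lower. With replicate number as a block, since same-numbered libraries deviated together, 6611 genes were called in place of 4232, and the same 3 of the 5 genes were called. The median fold of the 5 genes, 0.84 beside -0.01 for all genes, is that of Slc17a8, which was not called. The median of the genes tested was 0.74 after AMPH at 60 min and 0.31 in SST. At 24 h it was 0.02 after saline and 0.06 after AMPH. After AMPH the same 3 genes were called in the same directions, where 12.7% of genes were called higher and 15.5% lower. In SST nuclei Ecel1 and Lhx8 were called higher of 4 genes tested, against 58.3% of all genes called, 28.9% higher and 29.4% lower. For both genes every IP library lay above every UF library, as it did for 31% of all genes, while 32.5% had every IP library below. At 24 h none of 3 genes tested was called after saline (7.13% of genes higher, 7.75% lower), and after AMPH Lhx8 was called higher and Gbx1 lower of 4 (12.3% higher, 12.1% lower). All saline IP libraries at 24 h carry Iso2, a number in the sample titles, and the 24 h fits hold a term for that number. The 24 h saline folds of IP over UF, of genes and of regions, thus rest on the Iso2 libraries. In these bulk libraries a smaller share of nuclei of 1 type and a less open locus in each nucleus cannot be told apart.

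**Figure D2:**
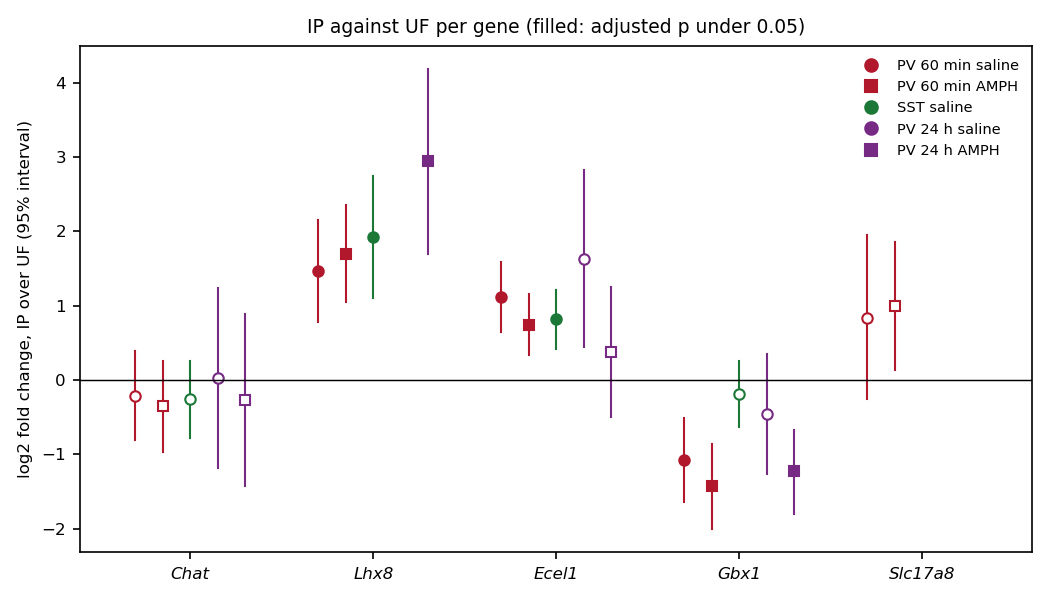
Log2 fold change of IP over UF for each gene in the 5 comparisons, with 95% intervals; filled symbols have an adjusted p under 0.05. Lhx8 is above 0 in each comparison in which it was tested, Gbx1 is below 0, and every Chat interval spans 0.

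Chat, the acetylcholine-synthesizing enzyme, had 5 regions in the PV 60 min table, all inside the gene. Its saline CPM at 60 min was 11.9, 11.8, 6.44 and 15.2 in IP (replicates 1, 2, 4 and 5) and 13.6, 16.7, 12.7 and 9.01 in UF. The groups overlapped, with the lowest library in IP and the highest in UF. The fold was -0.21 (SE 0.28, adjusted p = 0.635), with a 95% interval from -0.81 to 0.39. In SST nuclei Chat had 5.2, 3.95 and 3.57 CPM in IP and 4.48, 6.01 and 4.86 in UF, a fold of -0.26 (SE 0.25, adjusted p = 0.383). The folds were -0.35 (SE 0.29) after AMPH at 60 min, 0.02 (SE 0.61) after saline at 24 h and -0.27 (SE 0.56) after AMPH at 24 h, none called. The PV and SST folds of Chat differed by 0.06, with an interval from -0.8 to 0.91. Like the other gene-level differences below, it sets unlike sums of regions side by side, 5 in PV and 2 in SST for Chat. Cre line and table cannot be told apart in it.

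Single regions of Chat did not move together. The region at chr14:32427481-32427680, 38.2 kb inside the gene from its start, had 0.602, 0.722, 1.61 and 1.05 CPM in saline PV IP and 2.96, 4.38, 2.76 and 2.54 CPM in UF at 60 min. Every IP library was below every UF library, a fold of -1.69 (SE 0.42, adjusted p = 0.00322) among regions of which 21.5% were called higher and 23.3% lower. Such a separation was found for 21.1% of regions in this direction and 19.3% in the other. After AMPH it had 0.581, 0.675, 0.849 and 1.42 CPM in IP and 4.91, 2.5, 3.83 and 2.25 in UF. The groups were again apart, as held for 19.8% of regions in this direction, and the fold was -2.09 (SE 0.49, adjusted p = 0.00122). In the SST table no region was listed at that locus. There, where 24.1% of regions were called higher and 22.7% lower, the region at chr14:32413014-32413213 was called lower instead. It had 1.15, 0.752 and 0.436 CPM in IP, 1.43, 2.73 and 2.32 in UF and a fold of -1.47 (SE 0.46, adjusted p = 0.00574).

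The same locus in PV nuclei, chr14:32412995-32413194, had 2.81, 3.4, 1.38 and 3.9 CPM in saline IP and 2.46, 2.51, 2.52 and 1.88 in UF, with overlapping groups and a fold of 0.23 (SE 0.38, adjusted p = 0.662). The difference between the PV and SST folds was tested at the 114555 regions matched between the 2 tables, a comparison in which Cre line and table cannot be told apart. It was 1.84 at this Chat locus (SE 0.59, interval 0.62 to 3.05, adjusted p = 0.026), where 10.7% of matched regions were called with a higher fold in PV and 13.1% with a lower one. This call was lost without PV IP replicate 2, SST IP replicate 2 or 3, or SST UF replicate 2 or 3, with folds of 1.54 to 1.84 and adjusted p from 0.0506 to 0.0969 for Chat. The locus common to all 3 tables, chr14:32425461-32425660 in the PV 60 min table, had folds of 0.32 (SE 0.41) in PV and 0.13 (SE 0.32) in SST, neither called, with overlapping IP and UF libraries in both. The 24 h table held 1 further region, chr14:32439810-32440009, with 2.04, 1.27 and 0 CPM in saline IP, 0.805, 3.16, 0 and 1.55 CPM in AMPH IP, and 0 CPM in every UF library except 1 at 0.879. Its counts were too low for the test of IP against UF.

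Slc5a7, the choline transporter of cholinergic terminals, had no region in its body or flanks in any table. The nearest region lay 7.92 kb from the gene in the PV 60 min table, 52 kb away in the SST table and 49.7 kb away in the PV 24 h table. A lack of regions in all 3 tables was found for 19.2% of protein-coding genes. Regions were chosen on these libraries, so an open site in few nuclei can be missing from a table. Slc18a3, the vesicular acetylcholine transporter, likewise had no region.

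Lhx8, the LIM-homeodomain factor, was higher in IP in every comparison in which it was tested. Its saline CPM at 60 min was 11.1, 7.65, 9.04 and 11.3 in PV IP and 5.4, 2.27, 2.86 and 4.06 in UF. No IP library fell to the level of any UF library, as held for 11.9% of genes. The fold was 1.47 (SE 0.32, adjusted p = 0.00405). After AMPH it had 13.7, 15.9, 15.2 and 4.63 CPM in IP and 4.06, 4.36, 3.38 and 4 in UF, a fold of 1.7 (SE 0.31, adjusted p = 0.000508). The lowest IP value came from replicate 4, the shallowest library of the table at 1386842 counts, where it rests on 5 reads, and it lay above all UF libraries.

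In SST nuclei Lhx8 had 2.36, 2.56 and 4.57 CPM in IP and 0.973, 0.736 and 0.794 in UF. These levels come from 1 region in the flank, with 13 to 32 reads per library in IP and 6 to 10 in UF. The groups were apart, with a fold of 1.92 (SE 0.39, adjusted p = 0.000467). The PV and SST folds differed by -0.43 (SE 0.51, adjusted p = 0.566), with an interval from -1.5 to 0.63. At 24 h after AMPH the IP libraries had 14.5 CPM (Iso1-1) and 4.48, 2.06 and 2.74 CPM (Iso2-1 to Iso2-3, where Iso is a number in the sample titles), and the UF libraries had 1.39, 0.43, 0.465 and 1.35. Every IP library was above every UF library, as held for 12.8% of genes, and the fold was 2.94 (SE 0.61, adjusted p = 0.000571). Without IP library Iso1-1 it was 1.27 and no longer called. With the term for Iso, that fold rests on Iso2-1 as the only UF library of Iso2. Without IP library Iso2-1 or Iso2-3 Lhx8 had too few counts to be tested. After saline at 24 h Lhx8 had too few counts to be tested, with 7.32, 2.89 and 0 CPM in IP and 0 to 2.46 CPM in UF.

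The Lhx8 region with the largest fold in saline PV nuclei at 60 min lay beyond the 3' end. The region at chr3:154305607-154305806, 482 bp beyond that end, had 5.01, 2.99, 3.23 and 4.65 CPM in saline PV IP and 1.64, 1.1, 0.63 and 0.441 in UF. Its groups did not overlap, as held for 19.3% of regions in this direction, and the fold was 2.02 (SE 0.43, adjusted p = 0.00109). In SST nuclei this locus was the only Lhx8 region, so its reads are the same as those of the gene there. Where 24.1% of SST regions were called higher, it had 1.91, 1.96 and 3.49 CPM in IP. Its UF libraries had 0.843, 0.63 and 0.715 CPM, a fold of 1.74 (SE 0.43, adjusted p = 0.000572). The matched fold differed between PV and SST by 0.42 (SE 0.61, adjusted p = 0.648, interval -0.83 to 1.67). At 24 h this locus had too few counts for the test. It had 0.926, 2.03 and 0 CPM in saline IP and 0, 1.65, 0 and 2.34 in UF, with overlapping groups. After AMPH it had 8.58, 2.37, 1.58 and 1.86 CPM in IP, all above the 0.879, 0.435, 0 and 1.29 CPM in UF. Such a separation was found for 14.6% of the regions tested after AMPH at 24 h. The 24 h region inside the gene, chr3:154317629-154317828, also untested, had 6.11, 1.01 and 0 CPM in saline IP and 0, 0, 0.837 and 0 in UF, so its groups overlapped at 0. In the PV 60 min table a neighbouring region at chr3:154305301-154305500 had a fold of 1.32 (adjusted p = 0.0535), which was called without IP replicate 1 or 4 or UF replicate 5 (1.46 to 1.78, adjusted p from 0.0285 to 0.0439). The only region inside the gene in this table, chr3:154328460-154328659, had a fold of 1.09 (adjusted p = 0.0739), and with replicate number as a block it was 1.05 (adjusted p = 0.0396). Without IP replicate 2 it was 1.46 (adjusted p = 0.019). With the gene body alone, Lhx8 had a fold of 1.06 in PV saline (adjusted p = 0.127) and of 0.64 after AMPH at 60 min (adjusted p = 0.234).

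Gbx1, the other homeobox gene, moved the opposite way in PV nuclei. Its saline CPM at 60 min was 6.31, 7.28, 10.7 and 9.56 in IP and 21.2, 22.2, 11 and 17.6 in UF. All IP libraries were below all UF libraries, as held for 14.9% of genes, and the fold was -1.07 (SE 0.26, adjusted p = 0.00863). After AMPH it had 12.2, 5.95, 6.52 and 5.56 CPM in IP and 17.8, 19.6, 27.2 and 15.4 in UF, a fold of -1.43 (SE 0.28, adjusted p = 0.000819). Repeated AMPH gave 7.66, 9.51, 7.41 and 10 CPM in IP at 24 h and 17.4, 14.6, 19.5 and 22.6 in UF, a fold of -1.23 (SE 0.28, adjusted p = 0.0012). Without UF library Iso2-1 this fold was -1.15 and not called. With the term for Iso, it then rests on Iso1-1 as the only IP library of Iso1.

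After repeated saline Gbx1 had 13.3, 10.1 and 8.44 CPM in IP, all Iso2. UF libraries had 16.4 and 18.5 CPM (Iso1) and 16.6 and 14.1 CPM (Iso2). The groups did not overlap, as held for 11.5% of genes in this direction. The fold of -0.46 (SE 0.4), which rests on the Iso2 libraries, was not called (adjusted p = 0.484). In SST nuclei Gbx1 had 6.62, 6.71 and 5.43 CPM in IP and 6.03, 7.36 and 7.94 in UF. These groups overlapped, with a fold of -0.19 (SE 0.21, adjusted p = 0.448, interval -0.63 to 0.25). The PV fold was lower than the SST fold by -0.87 (SE 0.37), a difference that was not called (adjusted p = 0.0923) and that became -1.06 (adjusted p = 0.0352) without PV UF replicate 4.

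The lower Gbx1 level in PV IP was carried by a pair of regions in the 2 kb at the gene's lower-coordinate end. The nearest other gene to both is Agap3, 2.64 kb from the first. At chr5:24504683-24504882 saline PV IP libraries had 1.81, 2.58, 3.8 and 2.25 CPM and UF libraries 7.39, 7.67, 3.46 and 6.95 at 60 min. UF replicate 4 fell within the IP range while the other UF libraries lay above it, and the fold was -1.31 (SE 0.35, adjusted p = 0.00523). The region at chr5:24505863-24506062 had a fold of -1.02 (SE 0.35, adjusted p = 0.024), a call lost without IP replicate 1 or 2 or UF replicate 1, 2 or 5 (adjusted p from 0.0552 to 0.113). After AMPH the folds at 60 min were -1.17 (adjusted p = 0.0113) and -1.92 (adjusted p = 0.000316). Neither region had overlapping groups, as held for 19.8% of regions in this direction. At 24 h the first locus had 2.22, 2.28 and 0 CPM in saline IP and 7.3, 8.81, 7.81 and 7.89 in UF, a fold of -1.96 (SE 0.67, adjusted p = 0.0303). The shares of all regions called there were 9.57% higher and 9.52% lower. The call at this Gbx1 locus was lost without each IP library in turn (adjusted p 0.0627 to 0.0928) and under the block on replicate number (-1.77, adjusted p = 0.0882). The second locus had 4.07, 1.01 and 1.32 CPM in saline IP and 4.17, 4.41, 4.46 and 3.51 in UF at 24 h, with overlapping groups and a fold of -0.68 (SE 0.78, adjusted p = 0.595). After repeated AMPH both loci were called lower without overlap, with folds of -2.54 (SE 0.5, adjusted p = 0.000479) and -1.86 (SE 0.58, adjusted p = 0.0176). There 14% of regions were called higher and 13.1% lower, and 15.8% had such a separation. In SST nuclei the folds of both loci were -0.36 (SE 0.3 and 0.31), neither called, and the matched PV and SST folds differed by -0.79 (adjusted p = 0.243) and -0.53 (adjusted p = 0.457).

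At the other end of Gbx1 the 24 h table held 2 regions that the other tables lacked. The region at chr5:24527011-24527210, 163 bp beyond the end, had 3.15, 4.82 and 2.64 CPM in saline IP and 1.04, 1.65, 1.39 and 0.292 in UF. IP libraries were all above UF libraries, opposite in direction to the other end, with a fold of 2.09 (SE 1.06) that was not called (adjusted p = 0.157), and 14.6% of regions had such a separation. After AMPH the groups overlapped, with 1.61, 3.84, 1.19 and 1.55 CPM in IP and 2.99, 1.09, 2.31 and 0.738 in UF.

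**Figure D3:**
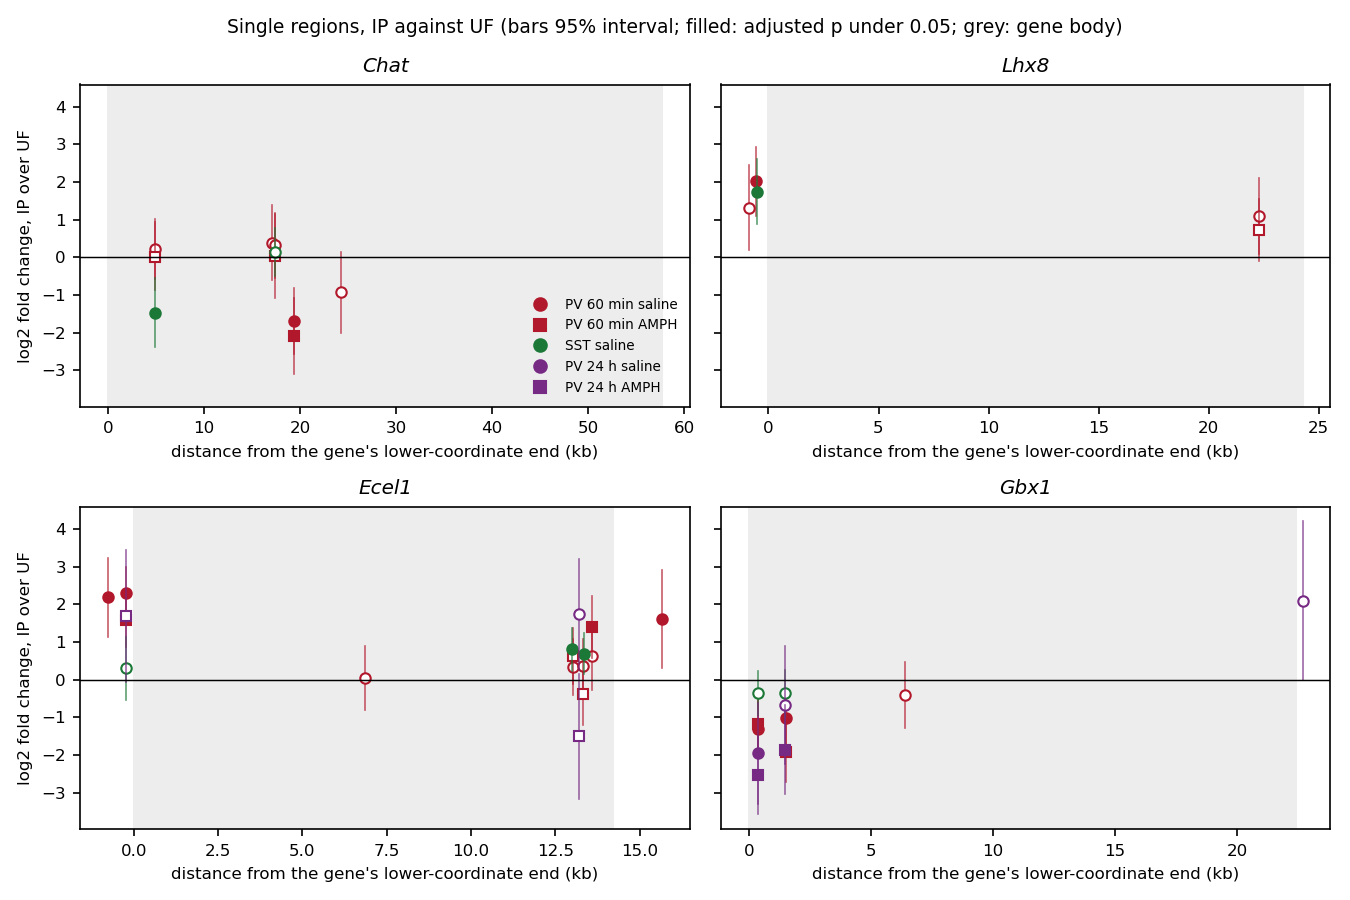
Log2 fold change of IP over UF for the single regions tested, against distance from the lower-coordinate end of each gene in kb, with the gene body in grey and 95% intervals; filled symbols have an adjusted p under 0.05. The called higher regions of Lhx8 and the highest of Ecel1 lie left of the gene body, past the 3' end, and the called lower regions of Gbx1 lie in its first 2 kb.

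Ecel1, the membrane peptidase, had the most regions of the 6 genes, 8 in the PV 60 min table. Its saline CPM was 24.2, 36.5, 22.2 and 45.5 in PV IP and 15.3, 14.4, 15.2 and 14.5 in UF. The UF libraries were within 1 CPM of each other and the IP libraries were all above them, with a fold of 1.12 (SE 0.22, adjusted p = 0.00219). After AMPH it had 22.9, 23.6, 30.7 and 28.7 CPM in IP and 12.4, 17.3, 15 and 16.9 in UF, a fold of 0.74 (SE 0.19, adjusted p = 0.00706). SST nuclei had 15.6, 12.2 and 11 CPM in IP and 6.62, 7.24 and 8.14 in UF, a fold of 0.82 (SE 0.19, adjusted p = 0.00125). No UF library reached the IP range in these 3 comparisons, a separation found for 11.9%, 12.5% and 31% of genes in this direction. At 24 h the groups overlapped, with folds of 1.63 (SE 0.59, adjusted p = 0.0529) after saline and 0.38 (SE 0.43, adjusted p = 0.568) after AMPH. The PV and SST folds differed by 0.3 (SE 0.33, adjusted p = 0.523, interval -0.37 to 0.98).

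Among the Ecel1 loci matched between PV and SST, the folds were called different only past the 3' end. Past the 3' end, at chr1:87142558-87142757, saline PV IP libraries had 7.42, 8.36, 6.22 and 10.8 CPM and UF libraries 1.64, 1.55, 1.1 and 2.21. All IP libraries were far above all UF libraries, and the fold was 2.29 (SE 0.33, adjusted p = 5.23e-05). IP libraries all above UF were found for 19.3% of regions. A neighbour at chr1:87142017-87142216 had 1.81, 3.51, 1.38 and 3.9 CPM in IP and 0.821, 0.258, 0.708 and 0.552 in UF, a fold of 2.18 (SE 0.51, adjusted p = 0.00194). In SST nuclei the first of these loci had 3.31, 1.5 and 0.871 CPM in IP and 1.35, 0.84 and 2.32 in UF. These groups overlapped, and the fold of 0.3 (SE 0.42) was not called (adjusted p = 0.588).

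The difference between the PV and SST folds at this 3' locus was 2.13 (SE 0.58, adjusted p = 0.0101, interval 0.94 to 3.32). Without SST UF replicate 3 it was 1.68 (adjusted p = 0.0658), and without every other library of the comparison in turn it was called. After AMPH the locus had 5.52, 4.95, 8.91 and 6.41 CPM in PV IP and 1.99, 2.24, 2.21 and 2.25 in UF. The fold was 1.57 (SE 0.34, adjusted p = 0.000731) with no overlap, as held for 15.7% of regions in this direction. At 24 h after AMPH it had 2.68, 4.97, 3.95 and 2.79 CPM in IP and 2.99, 1.31, 0 and 0.554 in UF, where 1 UF library lay among the IP libraries and the fold of 1.69 (SE 0.85) was not called (adjusted p = 0.149).

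Closer to the start of Ecel1, in saline SST nuclei, the regions at chr1:87155773-87155972 and chr1:87156109-87156308 were called higher, as were 24.1% of all regions tested there. The first had 3.95, 3.76 and 3.59 CPM in IP and 2.11, 2.2 and 2.15 in UF, a fold of 0.8 (SE 0.29, adjusted p = 0.0194) lost without SST UF replicate 3 (adjusted p = 0.0509). The second had 5.35, 4.06 and 3.92 CPM in IP and 2.28, 3.15 and 2.86 in UF, a fold of 0.69 (SE 0.27, adjusted p = 0.0315) lost without IP replicate 1 or UF replicate 1 or 3 (adjusted p from 0.0634 to 0.138). In saline PV nuclei the matching regions had folds of 0.34 (SE 0.35) and 0.36 (SE 0.35), neither called. The differences between the PV and SST folds there were -0.32 (adjusted p = 0.645, interval -1.24 to 0.61) and -0.17 (adjusted p = 0.815, interval -1.1 to 0.76), so a difference at the start was not shown.

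The region printed in capitals above, chr1:87156347-87156546, lies over the Ecel1 start. It had 1, 4.33, 2.88 and 3 CPM in saline PV IP and 0.986, 2.19, 1.89 and 1.99 in UF, with IP replicate 1 among the UF libraries and a fold of 0.62 (SE 0.42, adjusted p = 0.253). Without that IP library the fold was 0.98 (adjusted p = 0.0497). After AMPH it had 3.49, 4.83, 2.97 and 2.14 CPM in IP and 1.19, 1.73, 1.47 and 0.902 in UF. All IP libraries were then above all UF libraries, as held for 15.7% of regions, and the fold was 1.39 (SE 0.4, adjusted p = 0.00642). Whether the fold itself differed between AMPH and saline was tested over all 19 regions of the genes that entered that fit, and none was called. Upstream of the gene, chr1:87158434-87158633 had 1.2, 1.24, 1.15 and 6.3 CPM in saline IP and 0.493, 0.322, 1.5 and 0.662 in UF. Its fold of 1.61 (SE 0.62, adjusted p = 0.0424) rested on IP replicate 5, and without that library it was 0.61 (adjusted p = 0.409). The call was also lost without UF replicate 1, 2 or 5 (adjusted p 0.0852, 0.117 and 0.103). With the gene body alone, the gene fold was 0.34 (adjusted p = 0.312) in PV saline and 0.28 (adjusted p = 0.4) after AMPH, and the difference from SST changed sign to -0.55 (adjusted p = 0.214).

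Slc17a8, the vesicular glutamate transporter of cholinergic cells, had 1 region in the PV 60 min table, at chr10:89599401-89599600. It lies inside the gene, 215 bp downstream of the internal start whose window is printed above. On the gene scale it had 4.54, 4.57, 3.1 and 0.486 CPM in saline IP and 2.37, 1.72, 1.2 and 1.9 in UF. IP libraries 1, 2 and 4 were above all UF libraries and IP replicate 5, with 3 reads, was below them, so the fold of 0.84 (SE 0.52) was not called (adjusted p = 0.261). Without replicate 5 it was 1.21 (adjusted p = 0.038). After AMPH it had 10.3, 4.09, 6.79 and 0.927 CPM in IP and 2.71, 3.21, 2.96 and 2.57 in UF, where the low IP library is replicate 4, with 1 read.

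The fold of IP over UF of Slc17a8 after AMPH was 0.99 (SE 0.41) and not called among genes (adjusted p = 0.0801), and the same region was called in the fit over regions, with a fold of 1.08 (SE 0.41, adjusted p = 0.0344). In that fit 21.5% of regions were called higher and 22% lower. The gene call was reached without IP replicate 2 (1.24, adjusted p = 0.0252) or without IP replicate 4 (1.18, adjusted p = 0.0249). At 24 h its 2 regions lay elsewhere in the gene and held 0 to 21 reads per library, too few for a test of IP against UF.

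Amphetamine was then compared with saline within each fraction and time. No gene of the 6 was called, and neither was any gene among 16569 in PV IP and 16892 in UF at 60 min, nor among 16243 in PV IP and 15788 in UF at 24 h (0% called in each). At an unadjusted p under 0.05 there were 257, 606, 608 and 560 genes, and DESeq2 called 0, 0, 0 and 1. At 60 min the folds of AMPH over saline in IP ran from -0.3 (SE 0.24) for Ecel1 to 0.88 (SE 0.59) for Slc17a8. In UF they ran from 0.06 (SE 0.16) for Ecel1 to 0.75 (SE 0.31) for Slc17a8. Lhx8 had a fold of 0.42 (SE 0.31) in IP, Gbx1 of -0.17 (SE 0.34) and Chat of -0.03 (SE 0.36), and each pair of groups overlapped.

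Slc17a8 in UF at 60 min was the single case among the genes tested in which AMPH and saline groups did not overlap. Its UF libraries had 2.71, 3.21, 2.96 and 2.57 CPM after AMPH against 2.37, 1.72, 1.2 and 1.9 after saline. That separation was found in 1.02% of genes in this direction, and the fold was 0.75 (SE 0.31). In edgeR's quasi-likelihood test its adjusted p was 0.97. In IP at 24 h, where Slc17a8 had too few counts to be tested, every AMPH library (0, 1.09, 0.412 and 0.645 CPM) lay below every saline library (4.04, 1.44 and 1.69 CPM), on 0 to 21 reads each. At 24 h the folds in IP were between -0.47 (SE 0.51) for Lhx8 and -0.24 (SE 0.49) for Chat, with overlapping groups, where 2.34% of genes had AMPH libraries all above and 2.48% all below the saline libraries. Those in UF were between -0.58 (SE 0.51) for Chat and 0.21 (SE 0.27) for Gbx1, with overlapping groups. All saline IP libraries at 24 h are Iso2, so the IP fold rests on the Iso2 libraries, and without the term for Iso the fold of Lhx8 turned to 0.38.

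**Figure D4:**
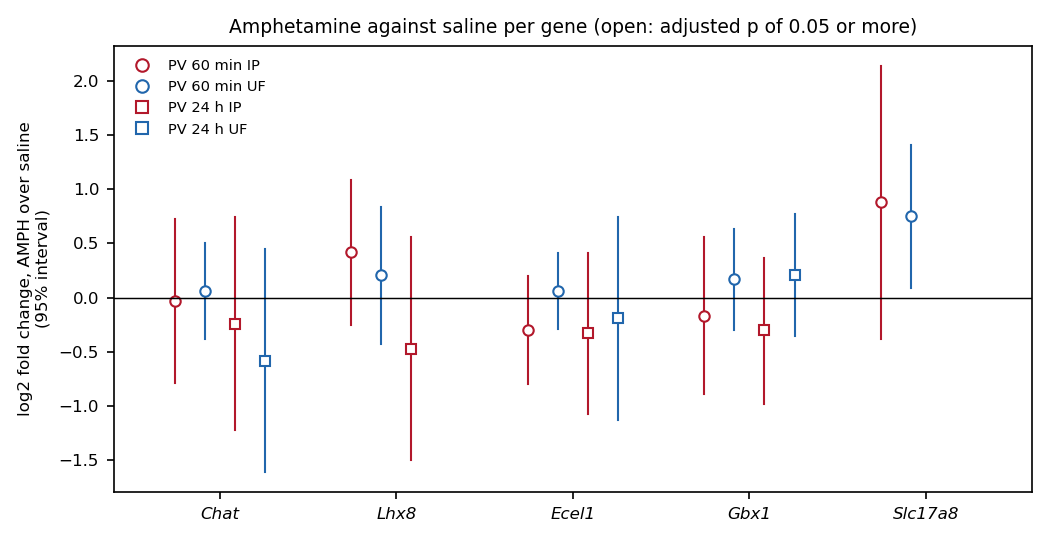
Log2 fold change of AMPH over saline for each gene in PV IP and UF at 60 min and 24 h, with 95% intervals; genes with too few counts at 24 h have no symbol. All symbols are open, as no adjusted p was under 0.05, and only the interval of Slc17a8 in UF at 60 min stays above 0.

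Among single regions of the 6 genes, 13 were tested for AMPH in PV IP and 14 in UF at 60 min, and 5 and 3 at 24 h, and none had an unadjusted p under 0.05. The Ecel1 region at chr1:87155962-87156161 in IP at 24 h had all AMPH libraries (0 to 4.18 CPM) below all saline libraries (4.56 to 7.93 CPM), as held for 1.88% of regions, with a fold of -0.84 (SE 0.53, adjusted p = 1). At 60 min the folds of the regions tested ran from -0.76 to 0.79 in IP and from -0.4 to 0.66 in UF. Over all regions, none was called at 60 min, with 3434 and 6476 at an unadjusted p under 0.05, and at 24 h 11 of 90202 regions in IP (0.0122%) and 34 of 64477 in UF (0.0527%) were called, all lower. The test of whether AMPH acted differently in IP and UF called no gene at either time (0% of 17110 and of 16555), with 76 and 658 genes at an unadjusted p under 0.05 and none by DESeq2. At 60 min its values were -0.35 (SE 0.29) for Ecel1, 0.25 (SE 0.44) for Lhx8 and -0.34 (SE 0.39) for Gbx1, with intervals of -0.96 to 0.26, -0.67 to 1.17 and -1.16 to 0.48. At 24 h its values were -0.43 (SE 0.61) for Ecel1, 0.96 (SE 1.01) for Lhx8, -0.54 (SE 0.41) for Gbx1, 0.05 (SE 0.74) for Chat and -2.16 (SE 1.23) for Slc17a8, whose interval ran from -4.62 to 0.31 and whose value at 60 min was 0.17.

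Other genes of acetylcholine signalling gave the surroundings of these results. Of 6 further genes of cholinergic neurons (Slc18a3, Slc10a4, Isl1, Gbx2, Ngfr and Zic4), 5 were tested in saline PV libraries at 60 min and none was called. Isl1, the LIM-homeodomain partner of LHX8, had a fold of 0.17 (SE 0.25) there, was called higher in SST IP (0.53, SE 0.14, adjusted p = 0.00375) and was called lower in PV IP after repeated AMPH (-1.19, SE 0.31, adjusted p = 0.00512). Gbx2 was called lower in SST IP (-1.07, SE 0.42, adjusted p = 0.0366). Of 4 genes of acetylcholine breakdown, only Prima1, which anchors acetylcholinesterase to the membrane, was called in saline PV libraries at 60 min. It was lower (-0.89, SE 0.15, adjusted p = 0.000611), and it was also lower in SST IP (-1.38, SE 0.12, adjusted p = 6.15e-08).

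Receptor genes of acetylcholine were called in both directions, at shares to be read against the 25% of all genes called in saline PV libraries at 60 min and the 58.3% called in SST. Of 5 muscarinic receptor genes, Chrm2 was called higher in saline PV IP at 60 min (1.45, SE 0.22, adjusted p = 0.000371) and Chrm1 lower (-0.86, SE 0.26, adjusted p = 0.0245). In SST IP Chrm2 (1.29, SE 0.1), Chrm3 (0.52, SE 0.09) and Chrm5 (0.34, SE 0.09) were called higher and none lower. Of 9 nicotinic subunit genes, Chrna4 (0.69, SE 0.21) and Chrnb2 (0.86, SE 0.21) were called higher in saline PV IP and Chrna6 (-1.62, SE 0.44) and Chrna7 (-1.13, SE 0.2) lower. In SST IP Chrna4 was called lower (-0.51, SE 0.21), and Chrna2, Chrna5, Chrna6, Chrna7 and Chrnb3 were called higher, with folds from 0.47 to 0.87. The PV and SST folds differed with an adjusted p under 0.05 for 5 of the 9 subunits. They were higher in PV for Chrna4 (1.21, SE 0.31, adjusted p = 0.00941) and Chrnb2 (0.95, SE 0.31, adjusted p = 0.031), and lower for Chrna5 (-1.35, SE 0.31), Chrna6 (-2.45, SE 0.48) and Chrna7 (-1.6, SE 0.24), where 11.2% of 16502 genes were called higher and 10.8% lower (5765 genes in all with replicate number as a block, 3634 without). None of the 4 cholinergic genes in that test (Chat, Lhx8, Ecel1 and Gbx1) was called. The other vesicular glutamate transporters, Slc17a6 and Slc17a7, were not called in saline PV libraries at 60 min, and Slc17a7 was lower in SST IP (-0.51, SE 0.17, adjusted p = 0.0145).

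Over the 16 PV 60 min libraries the genes whose log CPM ran most like each of the 5 were unlike each other, and few kept the likeness at 24 h. Pearson's r, given as a description over libraries that share depth and fraction, was highest for Lhx8 with Nipsnap3b (0.95), Slc35a4 (0.94) and Elavl2 (0.94), and over the 15 libraries at 24 h these were -0.28, 0.3 and 0.8. For Gbx1 they were Cd163l1 (0.94), Plac8 (0.93) and Saa1 (0.93), with 0.38, 0.68 and 0.51 at 24 h. For Ecel1 they included Rtp4 (0.96) and Fndc5 (0.95), with 0.2 and -0.13 at 24 h. For Chat they were Grap2 (0.95), Abcc12 (0.93) and Vdr (0.88), and for Slc17a8 Hsd17b2 (0.9), Adad1 (0.88) and Man1c1 (0.88), none above 0.29 at 24 h. Among the genes themselves, r over the 16 libraries was 0.71 between Lhx8 and Ecel1, -0.68 between Lhx8 and Gbx1, -0.76 between Ecel1 and Gbx1 and -0.01 between Chat and Ecel1.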

How the data were processed

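ATAC-seq reads were counted by the authors in 200 bp regions, and the deposited values are raw read counts per region in 3 tables, used as deposited. Per the submitters' processing notes, FastQC 0.11.2, cutadapt 1.8.3, Bowtie2 2.3.4.3, MACS2 2.1.2, bedtools 2.25.0, deepTools, R 3.4.4, DESeq2 1.18.1 and mm10 were used; their order and settings, and whether a Tn5 offset was applied, are not given in the sources used here. Counts of regions in a gene and its 2 kb flanks were summed per gene (GenomicRanges 1.54.1). Genes and regions with at least 10 counts in enough libraries and 15 in total (edgeR's filter) were scaled by TMM and tested in R 4.3.3 with edgeR 4.0.16 (limma 3.58.1), by quasi-likelihood over the libraries of each comparison, with Benjamini-Hochberg adjustment over all features and a threshold of 0.05. DESeq2 1.42.0 was an alternative. The 24 h fits hold a term for Iso. The script was tested on simulated data. Depth was 650666 to 15120963 counts per library, and reads are not independent molecules, so intervals cover counting error and spread between libraries only. Libraries of a group differed beyond sampling noise (chi-square per degree of freedom 1.62 to 8.13 over 51 pairs). Each library is from a single mouse; whether IP and UF libraries of 1 number share a mouse is not stated. In the PV saline libraries at 60 min same-numbered IP and UF libraries deviated together (r 0.21 to 0.61 over 4 pairs, over 0.1 in each), so the fit with replicate number as a block is given beside results it changes. After AMPH at 60 min r was 0.09 to 0.51. The 6 genes were named in every comparison, single regions where they had the highest level, lay nearest a start or end or were called after saline, and pathway genes where they were called; others named with values were chosen after their values were seen. The genes and lists were chosen with earlier results of these data known. The test of PV against SST folds at matched regions was chosen after seeing the data. A few genes of these lists are not reported here.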

Additional observations from a re-analysis of the deposited data

Results flagged for a closer look

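In groups of 4 libraries, 35 sets of gene levels and 42 sets of region levels were screened for a library whose gap to its nearest neighbour is a larger share of the group's range than Dixon's 95% critical value, and 1 and 3 passed. Chance flags about 1 in 20 groups. Gbx1 in PV IP after AMPH at 60 min had a gap of 0.855 of the range, with 12.2 CPM in replicate 1 against 5.56 to 6.52 CPM in the others. The Ecel1 region at chr1:87158434-87158633 in saline PV IP had a gap of 0.983, with 6.3 CPM in replicate 5 against 1.15 to 1.24 CPM. The Ecel1 region at chr1:87142558-87142757 in PV UF after AMPH had a gap of 0.846, with 1.99 CPM in replicate 1 against 2.21 to 2.25 CPM. The Slc17a8 region at chr10:89599401-89599600 in PV UF after AMPH had a gap of 0.864, with 2.69 CPM in replicate 2 against 2.03 to 2.12 CPM.

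The IP over UF fold was called different between PV and SST pulldowns at a pair of regions, by a test chosen after seeing the data. It was higher in PV by 2.13 on the log2 scale at the Ecel1 region chr1:87142558-87142757 and by 1.84 at the Chat region chr14:32412995-32413194. The Ecel1 call was lost without SST UF replicate 3, and the Chat call without any of several single libraries. Of matched regions, 10.7% were called higher in PV and 13.1% lower, and Cre line and table cannot be told apart.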

How the results depend on the processing

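Depth limits the 24 h table most, where single reads are worth up to 1.69 CPM. The Gbx1 calls at 60 min held in all 15 alternatives. In SST nuclei the Ecel1 and Lhx8 calls held in the 13 and 12 alternatives that tested them. Without flanks the genes called higher fell from 2 to 0 in PV saline and in PV AMPH at 60 min. They fell from 1 to 0 in PV AMPH at 24 h and from 2 to 1 in SST, as Lhx8 was then not tested in either. Without flanks Ecel1 turned to -1.38 in PV AMPH at 24 h and to -0.55 in PV minus SST. With gene ends only, 2226, 2554, 1169, 2116 and 1747 genes were called, from 4232, 4688, 2390, 3971 and 3634. These counts are for PV saline and AMPH at 60 min, saline and AMPH at 24 h, and PV minus SST. Of the cholinergic genes, 1 and 0 were then called higher in PV AMPH at 60 min and 24 h, where Lhx8 was not tested.

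With the replicate block, counts were 6611 for PV saline at 60 min, 5765 for PV minus SST, and 2 and 1 for AMPH in UF at 60 min and 24 h. Called lower regions fell to 0 after saline and to 1 after AMPH at 24 h. After AMPH at 60 min same-numbered libraries had r of 0.09 to 0.51, against -0.38 to 0.23 for unlike numbers. The block there called 6341 genes in place of 4688. Between AMPH and saline UF libraries at 60 min, same-numbered libraries had r of 0.03 to 0.15, against -0.55 to 0.6 for unlike numbers. The number did not pair those libraries. At 24 h and in SST the numbers did not pair the libraries (lowest r -0.06 and 0). Under the block Chat turned to 0.05 (PV AMPH 24 h), -0.38 (AMPH by fraction, 24 h) and -0.22 (AMPH in UF, 60 min), Gbx1 to -0.01 (AMPH in UF, 60 min), and the Chat regions at 32412995 and 32425461 to -0.09 and -0.11 (PV AMPH 60 min). The first was -0.03 with RLE size factors and -0.04 without the count filter, which raised the called higher regions to 6 at 60 min and 2 at 24 h after AMPH. Without the Iso term Chat was -0.29 (24 h saline), Lhx8 0.38 (AMPH in IP) and Ecel1 0.02 (AMPH in UF). DESeq2 gave Chat -0.06 at 24 h after saline and called 1 gene for AMPH in UF at 24 h, as did the gene body alone. For AMPH at 60 min, Lhx8 without flanks was -0.09 in IP and -0.44 by fraction, and Gbx1 with ends only 0.38 and 0.1.

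Leaving out 1 library gave called genes of 1297 to 2782 (24 h saline, lowest without IP Iso2-2, and 1369 without IP Iso2-1), 2458 to 4032 (24 h AMPH, lowest without IP Iso1-1), 2274 to 4659 (PV minus SST, lowest without SST IP 3, with 2292 without SST IP 2 and 2371 without SST UF 3), 0 to 4 (AMPH in IP, 24 h, most without saline IP Iso2-1) and 0 to 2 (UF), and 17937 to 31592 matched regions (lowest without SST IP 3). Of the genes, 0 to 1 were called higher at 24 h after saline, 0 to 1 higher and 0 to 1 lower after AMPH, and 0 to 1 lower in PV minus SST. Of their regions, 0 to 1 were called lower at 24 h after saline, 1 to 3 higher in SST and 0 to 2 higher at matched loci. Signs changed within these ranges: Chat -0.69 to 1.62 and -1 to 0.34 (24 h saline, AMPH), -0.13 to 0.26 (PV minus SST), -0.24 to 0.22 and -0.08 to 0.22 (AMPH in IP and UF, 60 min), -0.81 to 0.06 (IP, 24 h), -0.32 to 0.17 and -0.47 to 0.41 (by fraction, 60 min and 24 h). Ecel1 ranged over -0.04 to 0.76 (24 h AMPH), -0.01 to 0.15 (AMPH in UF, 60 min), -0.69 to 0.04 and -0.64 to 0.28 (IP and UF, 24 h). Gbx1 ranged over -0.02 to 0.3 and -0.06 to 0.36 (AMPH in UF, 60 min and 24 h), Lhx8 over -0.87 to 0.48 (IP, 24 h) and -0.03 to 1.9 (by fraction), and Slc17a8 over -0.22 to 0.44 (by fraction, 60 min). Regions ranged over -0.11 to 0.62, -0.02 to 0.22 and -0.08 to 0.63 (Chat 32425461 in PV, SST and their difference), and -0.08 to 0.21 (PV 87149617), -0.4 to 0.75 (SST 87142535) and -0.27 to 0.06 (difference at 87156078) for Ecel1. The cause of these changes was not tested. Without IP Iso1-1 the 24 h AMPH folds of IP over UF rest on UF Iso2-1 alone within Iso2. Without UF Iso2-1 they rest on IP Iso1-1 alone within Iso1.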
